A study of Homo sapiens with 4 samples.

Results

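The protocadherin genes of SK-N-BE(2) cells were examined after knockdown of METTL14. Members were taken by name alone: of the 60671 gene IDs in the count table, 66 belonged to protein-coding genes whose symbol starts with PCDH. These were 15 alpha genes (PCDHA), 16 beta genes (PCDHB), 22 gamma genes (PCDHG) and 13 genes that lie outside the clusters (non-clustered). A further 13 PCDH symbols of pseudogenes, antisense transcripts and other non-coding genes were left out. PCDH11Y, on the Y chromosome, is counted among the 66 but its values are not given, so the results cover 65 genes.

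SK-N-BE(2) is an established human neuroblastoma line with an amplified MYCN gene. The 4 libraries, all of this 1 line, came from cells with a control hairpin RNA (shNC, 2 libraries) or a hairpin against METTL14 (shMETTL14, 2 libraries). METTL14 pairs with METTL3 in the enzyme complex that writes the m6A mark (N6-methyladenosine) into messenger RNA. Hairpins were delivered in the lentiviral vector pLKO.1 with puromycin selection, the labels do not say which METTL14 hairpin was sequenced, and nothing states that libraries of a group came from separate cultures, so p-values measure only the spread between these libraries.

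Protocadherins are cadherin-like adhesion molecules of the nervous system. The clustered genes give each neuron a combination of surface labels that bind like to like, which neurites use to tell self from non-self. In the alpha and gamma clusters, each gene supplies its own large first exon, which encodes the extracellular and transmembrane parts, and this exon is spliced to a few constant exons that all genes of the cluster share. Beta genes have no constant exons. The C-type genes at the 3′ end of the alpha and gamma clusters (PCDHAC1, PCDHAC2, PCDHGC3, PCDHGC4 and PCDHGC5) tend to be expressed broadly, whereas the others are chosen more variably from cell to cell. Non-clustered protocadherins, mainly of the delta 1 and delta 2 groups, have separate loci and act in axon growth, cell sorting and synapse formation.

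The sharing of exons decides what the counts can see. In GENCODE 29 (GRCh38), the constant exons of the alpha cluster lie on the plus strand at chr5:140978949-140979007, chr5:140982475-140982563 and chr5:141009627-141012344. The first 2 occur unchanged in 15 of 15 alpha genes and the last in 14. The gamma constant exons lie at chr5:141494807-141494865, chr5:141505393-141505481 and chr5:141510947-141512979, the first 2 in 22 of 22 gamma genes and the last in 21. In both clusters the short constant exons measure 59 and 89 bases. Exon sequence shared with other members made up between 19.2% and 56.6% of an alpha gene, between 27.6% and 64.4% of a gamma gene and 0% of every beta gene. Sharing went beyond the constant exons in some genes. PCDHGB4 and PCDHGA8 each shared 4447 exon bases with members, where PCDHGA1 shared 2181. PCDHA2 and PCDHA3 each shared 3428, where PCDHA1 shared 2866. Where reads are assigned to genes one at a time, a read inside a shared exon belongs to no single gene. Under such counting, alpha and gamma counts report on exon sequence outside the shared part. Ambiguous reads of all kinds were between 5.01% and 5.32% of a library, and those from the constant exons cannot be separated out of that total. Opposite-strand transcripts overlapped exons of 8 alpha, 10 beta and 1 gamma genes, none of them protein-coding. Non-member genes on the same strand overlapped 221 exon bases of PCDHB8, 432 of PCDHB16, 337 of PCDHB9, 169 of PCDHB14 and 379 of PCDHB15. In PCDHA10, 5222 exon bases were shared on the same strand, of which 2924 were shared with members. A read inside such an overlap also belongs to no single gene.

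**Figure D1:**
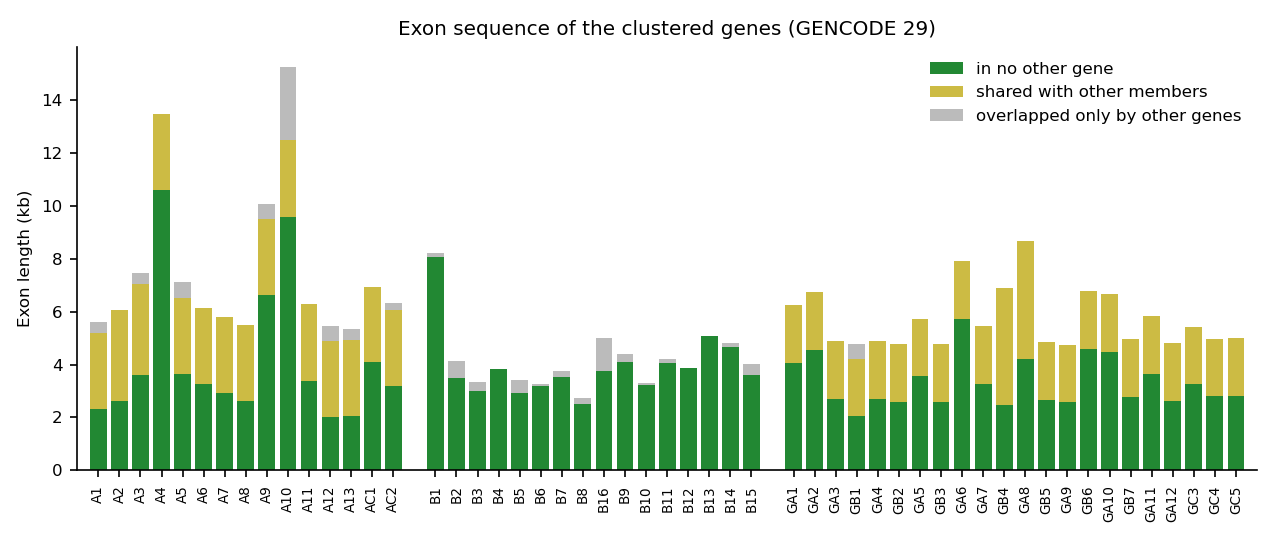
Exon length in kb of each clustered gene, in order along the chromosome within each cluster, split into sequence found in no other gene (green), sequence shared with other protocadherin members (yellow) and sequence overlapped only by further genes (grey). Alpha (A) and gamma (G) genes carry a shared block, and beta (B) genes carry none.

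Promoters of the clustered genes carry a short conserved sequence element near a binding site of the looping factor CTCF. A shared word of 10 bases around the letters CGCT was found in each cluster. Whether these words are that element was not tested. Windows from 250 bases before to 50 after each RefSeq start (GRCh38.p14) were on hand for 57 of the 65 members, and both strands were searched. Each word was picked from these same windows as the one holding CGCT that most members of a cluster share. TGATGTCGCT was found in 8 of 13 alpha windows, and in 12 of all 35116 windows (0.0342%). GGTGGCGCTG was found in 12 of 14 beta genes and 0.276% of all windows. GCGCCGCTGT was found in 9 of 20 gamma genes and 0.131% of all windows. No word occurred in the windows of another cluster or of the 10 non-clustered genes. CGCT alone occurs in 46 of the 47 clustered windows and in 70.0% of all windows. The windows below, 30 bases each on the plus strand with the word in capitals, show how far the match extends around it in members whose values follow.

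PCDHA12, chr5:140875244-140875273: atcagtcacaTGATGTCGCTctacactcag
PCDHA2, chr5:140794781-140794810: tttagccacaTGATGTCGCTgtccaccata
PCDHA1, chr5:140786086-140786115: attggccacaTGATGTCGCTgtacaccaca
PCDHB16, chr5:141182311-141182340: gagaacgcgtGGTGGCGCTGcaggttaaga
PCDHB4, chr5:141121724-141121753: caagacgcagGGTGGCGCTGcaggctaagt
PCDHB2, chr5:141094545-141094574: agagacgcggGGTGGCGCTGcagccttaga
PCDHGA1, chr5:141330405-141330434: aggactgtggGCGCCGCTGTtcactaatct
PCDHGA10, chr5:141412933-141412962: aggactctgaGCGCCGCTGTtcacctacta

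The windows of the C-type genes PCDHAC1, PCDHAC2, PCDHGC3 and PCDHGC4 did not hold the word of their cluster. Neither did those of PCDHA9, PCDHA10, PCDHA11, PCDHB1 and PCDHB14. Among the variable gamma genes, the word was absent for PCDHGA2, PCDHGA3, PCDHGA4, PCDHGA5, PCDHGA6, PCDHGA11, PCDHGB2, PCDHGB3 and PCDHGB7. The absence of these letters from a window says nothing of the factors bound there.

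The libraries were even in depth, with 18925786 to 19886214 reads counted in genes, and METTL14 was lower in both shMETTL14 libraries. The shNC libraries held 753 and 754 of its reads and the shMETTL14 libraries 303 and 321, so 41.7% of the control level remained (log2 fold change -1.26, SE 0.0832, edgeR adjusted p 3.6e-11). All 11 sympathetic neuroblastoma markers examined were above 1 CPM (counts scaled to a common library size with TMM factors), 8 of them called lower and 2 called higher in shMETTL14 cells. Of 12 markers of other cells, 7 exceeded 1 CPM in at least 1 library, led by LUM (238 to 254 CPM) and DCN (36.3 to 37.5 CPM), neither of which was called. The summed level of the 12 was 289.8 and 290.0 CPM in shNC and 286 and 302 CPM in shMETTL14 libraries, and KRT5 was at 0. The endothelial markers PECAM1 and CDH5 had at most 4 counts in a library. VWF, EPCAM and S100B, all at a low level, were called lower. The part of other cells in the protocadherin results was not tested. Across the 16309 genes that passed a filter on low counts, 8561 were called at an edgeR adjusted p under 0.05. Under upper quartile scaling the share of calls that were higher moved from 51.8% to 41.7%.

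Of the 7 non-clustered protocadherin genes that could be tested, 6 were called, 5 higher and 1 lower. Of the 50 clustered genes that could be tested, 4 were called (8%), 3 higher and 1 lower. Among all tested genes the share called was 52.5%, with 27.2% higher and 25.3% lower. Under upper quartile scaling the clustered genes again gave 4 calls, but 1 higher and 3 lower. None of the 4 calls under TMM scaling was made with DESeq2, which called 32.9% of the genes it tested and found 0 clustered genes at an unadjusted p under 0.05, where edgeR found 8. With 1 library left out, edgeR called between 1 and 3 clustered genes and 6 non-clustered genes each time. Such a fit leaves 1 library in a group and assumes that it varies like the libraries of the other group, so a call lost there is also a loss of replicates. The lower non-clustered call was PCDH15, which passed the filter on low counts only through the shNC libraries, where it is high. Requiring 10 counts in every library dropped it, and edgeR then called 5 of 6 non-clustered and 5 of 44 clustered genes. The share called among all genes tested was 55.0% there. In these bulk libraries, fewer cells expressing a gene and less RNA per cell cannot be told apart.

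In the delta 1 group, PCDH7 and PCDH1 rose and PCDH9 was not called. PCDH7, an adhesion molecule of neurons, lies on the plus strand at chr4:30720415-31146805. It had 207 and 182 counts in the shNC libraries and 519 and 522 in the shMETTL14 libraries. Its groups lay far apart and it was 2.70-fold higher by mean CPM, with a log2 fold change of 1.43 (SE 0.0973, edgeR adjusted p 6.4e-11).

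PCDH1 lies on the minus strand at chr5:141853111-141879246, beyond the 3′ end of the gamma cluster, and has a role in epithelial adhesion as well as in neurons. Its counts were 481 and 499 in shNC libraries against 774 and 739 in shMETTL14 libraries. It was 1.55-fold higher, without overlap between groups (log2 fold change 0.64, SE 0.0767, edgeR adjusted p 4.1e-07).

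PCDH9 (chr13:66302834-67230445, minus strand) had the most counts of any protocadherin, with 1421 and 1394 counts in shNC and 1362 and 1334 in shMETTL14 libraries. In CPM the shMETTL14 libraries lay just below the shNC libraries, at 69.6 and 69.3 against 71.3 and 72.8. The log2 fold change was -0.05, with a 95% interval from -0.16 to 0.05 (edgeR adjusted p 0.403). PCDH11X had no count in any library, but a read that matches its near-identical copy on the Y chromosome as well would not have been counted.

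In the delta 2 group, PCDH8, PCDH17 and PCDH18 rose. PCDH8, also known as arcadlin, is a protocadherin of synapses whose rat form is induced by neuronal activity. It had 19 and 11 counts in shNC libraries and 57 and 55 in shMETTL14 libraries (chr13:52842889-52848641, minus strand). This was the largest increase among the 57 genes tested, 3.78-fold by mean CPM (log2 fold change 1.90, SE 0.331, edgeR adjusted p 4.9e-05), although at a low level in both groups.

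PCDH17, which acts in axon extension and at presynaptic sites, lies on the plus strand at chr13:57631810-57729311. Its counts went from 97 and 103 to 188 and 237. The shMETTL14 libraries differed from each other, at 9.60 and 12.3 CPM, but each exceeded both shNC libraries, at 4.87 and 5.38 CPM. The mean was 2.14-fold higher (log2 fold change 1.10, SE 0.152, edgeR adjusted p 2.9e-06).

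PCDH18 (chr4:137518918-137532494, minus strand) had the smallest called increase of the group. It had 534 and 568 counts in shNC and 686 and 679 in shMETTL14 libraries, a mean 1.25-fold higher (log2 fold change 0.32, edgeR adjusted p 0.00159). The other delta 2 genes were hardly expressed. PCDH10 had 1 count in each shNC library and 2 and 3 in the shMETTL14 libraries, and PCDH19, known from an epilepsy disorder, had 6 and 6 against 3 and 1. Neither could be tested.

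PCDH15 went the other way. It encodes a component of the tip links of inner ear hair cells and lies on the minus strand at chr10:53802771-55627942. It had 69 and 59 counts in the shNC libraries and 16 and 9 in the shMETTL14 libraries. The groups did not overlap, and the mean was 5.09-fold lower in shMETTL14 cells (log2 fold change -2.33, SE 0.333, edgeR adjusted p 4.1e-06). It passed the filter on low counts only through the shNC libraries, where it is high. PCDH12, an endothelial protocadherin, had at most 10 counts in a library. PCDH20 was at 0 in all 4, but GENCODE 29 annotates 4577 of its 4778 exon bases also to another gene on the same strand, where a read would be ambiguous.

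**Figure D2:**
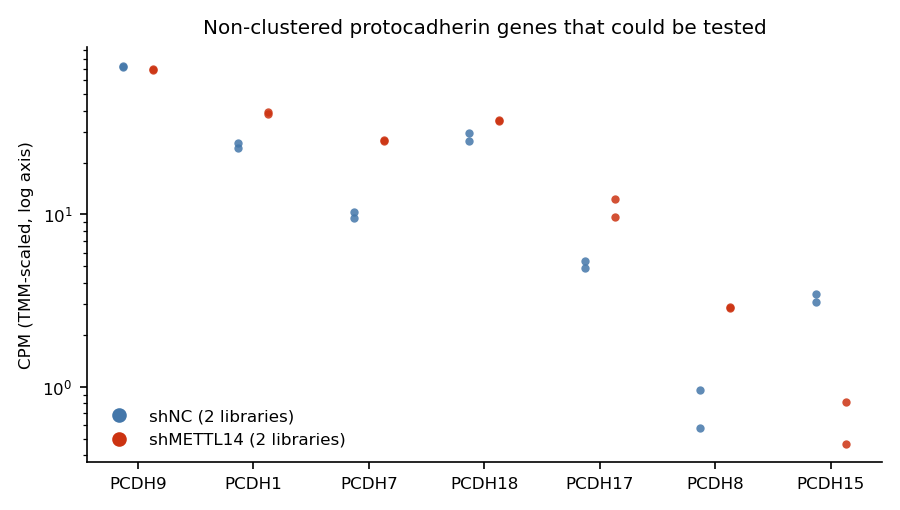
CPM on a log axis of the 7 non-clustered protocadherin genes that could be tested, 1 point per library (blue shNC, red shMETTL14). By mean CPM, PCDH7, PCDH8 and PCDH17 stand more than 2-fold higher in shMETTL14 than in shNC, and PCDH1 and PCDH18 somewhat higher. PCDH9 is near level and PCDH15 is 5.09-fold lower by mean CPM.

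When a called gene also had to change by 2-fold or more, 4 of the 7 non-clustered genes remained (PCDH7, PCDH8, PCDH17 and PCDH15) and 1 of the 50 clustered genes, beside 8.79% of all tested genes. At 1.5-fold the counts were 5 of 7 and 2 of 50, beside 18.8%. The median log2 fold change was 0.64 over the 7 non-clustered genes and 0.13 over the 50 clustered genes, where all tested genes had a median of -0.00095. The groups did not overlap in CPM for 7 of 7 non-clustered and 23 of 50 clustered genes, beside 75.5% of all tested genes. PCDH15 is in each of these non-clustered counts, although it passed the filter on low counts only through the shNC libraries.

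Clustered genes were expressed weakly, so the comparison was repeated by level. Of 38 clustered genes with a mean count under 100, 3 were called, beside 30.4% of all genes at that level. Their median log2 fold change was 0.26, beside -0.24 for all genes at that level. Of 12 clustered genes with a mean count of 100 or more, 1 was called, beside 62.7%. The median log2 fold change of the 12 was -0.12, beside 0.048 for all genes at that level. Their median standard error was 0.113, beside 0.0711 for all genes at that level, so the shares called are not matched for precision. The log2 fold changes of those 12 ran from -0.38 to 0.14, and the 95% intervals of all 12 lay within a 2-fold change and of 10 within a 1.5-fold change. The 38 weaker genes had a median standard error of 0.344, beside 0.367 for all genes at their level. The intervals of 15 of the 38 lay within 2-fold. For the other 23, a 2-fold change could not be shut out at this depth. Of the non-clustered genes, 4 of 5 with a mean count of 100 or more were called, beside 62.7% of all genes at that level. Under 100, 2 of 2 non-clustered genes were called, beside 30.4%. They include PCDH15, which passed the filter on low counts only through the shNC libraries, where it is high. Members of a cluster lie next to each other and are similar in sequence, so they are not independent observations.

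The alpha cluster spans 140786136 to 141012347 of chromosome 5, on the plus strand, and all 15 genes could be tested. Counts were highest for PCDHAC2, PCDHA10 and PCDHAC1, which together took between 67.7% and 71.7% of the alpha counts of a library. PCDHAC2 had 600 and 631 counts in shNC libraries and 625 and 528 in shMETTL14 libraries, and the groups overlapped. PCDHA10 had 475 and 414 counts against 427 and 422, again with overlap. PCDHAC1 had 346 and 326 counts against 356 and 355, with a log2 fold change of 0.09 and a 95% interval from -0.10 to 0.28.

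PCDHA11 was the only alpha gene called. Its counts were 197 and 200 in shNC and 144 and 159 in shMETTL14 libraries, without overlap, and the mean was 76.8% of control (log2 fold change -0.38, SE 0.13, edgeR adjusted p 0.0179). It was not called with DESeq2 (-0.37, adjusted p 0.202), and not called by edgeR without shNC library 2 (-0.34, adjusted p 0.0885) or without shMETTL14 library 1 (-0.29, adjusted p 0.134).

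Some low alpha genes had larger fold changes that did not pass the test. PCDHA1, the first gene of the cluster, had 11 and 7 counts in shNC and 18 and 20 in shMETTL14 libraries, with a log2 fold change of 1.08 (SE 0.468, edgeR adjusted p 0.0577). PCDHA13 had 18 and 24 counts against 34 and 37 (0.76, SE 0.345, edgeR adjusted p 0.0692). PCDHA2 had 72 and 66 counts against 41 and 56 (-0.50, SE 0.24, edgeR adjusted p 0.0878). In each of these genes the groups did not overlap, and the directions were mixed. PCDHA1 passed the filter on low counts only through the shMETTL14 libraries, where it is high, so that its difference was in part a condition of being tested. PCDHA13 was called where at least 10 counts were required in every library, and PCDHA2 without shMETTL14 library 2 (-0.74, edgeR adjusted p 0.0387). Over the cluster 8 log2 fold changes were above 0 and 7 below, with a median of 0.09. The median turned to -0.015 without shNC library 2 and to -0.074 where 10 counts were required in every library.

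The beta cluster spans 141051135 to 141249365 of chromosome 5, on the plus strand, and 14 of its 16 genes could be tested. PCDHB1 (at most 4 counts) and PCDHB5 (11 and 9 counts in shNC, 4 and 5 in shMETTL14 libraries) were too low. PCDHB16 was the most abundant, with 519 and 442 counts in shNC and 509 and 539 in shMETTL14 libraries, and a log2 fold change of 0.14 (95% interval -0.04 to 0.31) and overlap between groups. PCDHB4 had 246 and 268 counts against 247 and 207, and the groups overlapped. With PCDHB14, these genes held between 62.9% and 66.3% of the beta counts.

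PCDHB2 and PCDHB6 were called higher. PCDHB2 had 21 and 30 counts in shNC and 42 and 47 in shMETTL14 libraries (log2 fold change 0.81, SE 0.312, edgeR adjusted p 0.0345). PCDHB6 had 55 and 48 counts against 82 and 70 (0.57, SE 0.222, edgeR adjusted p 0.0362). The groups did not overlap in either gene, but with DESeq2 neither was called (0.82 and 0.58, adjusted p 0.22 and 0.237), and under upper quartile scaling of the edgeR fit both missed (0.74 and 0.50, adjusted p 0.0518 and 0.0638). PCDHB6 also missed when libraries were scaled by size alone (0.52, adjusted p 0.053). The log2 fold changes of these fits were close to those under TMM scaling. Without any 1 library, other than shNC library 2 for PCDHB2 and shMETTL14 library 2 for PCDHB6, the edgeR call was lost as well. PCDHB14 had 279 and 258 counts against 230 and 224 and was not called at -0.23 (SE 0.108, edgeR adjusted p 0.077), although upper quartile scaling (-0.30) and scaling by library size alone (-0.28) made it a lower call. PCDHB15 had 68 and 56 counts against 38 and 52 and was not called (-0.45, edgeR adjusted p 0.141). Over the cluster 7 values lay above 0 and 7 below, with a median of -0.03 that went to 0.060 without shMETTL14 library 1 and to -0.13 without shNC library 1.

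The gamma cluster spans 141330571 to 141512981 of chromosome 5, also on the plus strand, and 21 of its 22 genes could be tested. PCDHGB5, at 1 and 4 counts against 7 and 2, was too low. PCDHGC3 had the most counts of the clustered genes, with 1053 and 976 counts in shNC and 1074 and 1110 in shMETTL14 libraries. The groups did not overlap, but the log2 fold change of 0.12 did not pass the test (SE 0.0591, edgeR adjusted p 0.105). The 3 C-type genes took between 65.5% and 68.8% of the gamma counts of a library.

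PCDHGB3 was the only gamma gene called and the only clustered gene with a called change of at least 2-fold. It had 17 counts in each shNC library and 28 and 43 in the shMETTL14 libraries (log2 fold change 1.07, SE 0.369, edgeR adjusted p 0.019). The shMETTL14 libraries differed from each other, and without the higher of them, library 2, the value was 0.72 (adjusted p 0.272). The call was also lost without shNC library 1 (1.03, adjusted p 0.0798), without shNC library 2 (1.10, adjusted p 0.0625) and with DESeq2 (1.08, adjusted p 0.153), with a fold about as large.

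PCDHGC4 had 171 and 118 counts in shNC and 117 and 107 in shMETTL14 libraries and was not called (-0.36, SE 0.168, edgeR adjusted p 0.0814). A lower call was made with upper quartile scaling (-0.42), with scaling by library size alone (-0.40) and without shNC library 2 (-0.57). Without shNC library 1 the value was -0.10. PCDHGB2 had 41 and 37 counts against 63 and 45 (0.48, edgeR adjusted p 0.141). PCDHGA3, among the lowest, had 15 and 13 counts against 7 and 8 (-0.88, edgeR adjusted p 0.156), and passed the filter only through the shNC libraries, where it is high. Over the cluster 15 values were above 0 and 6 below, with a median of 0.18. The median was 0.35 without shNC library 2 and 0.088 without shMETTL14 library 2.

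**Figure D3:**
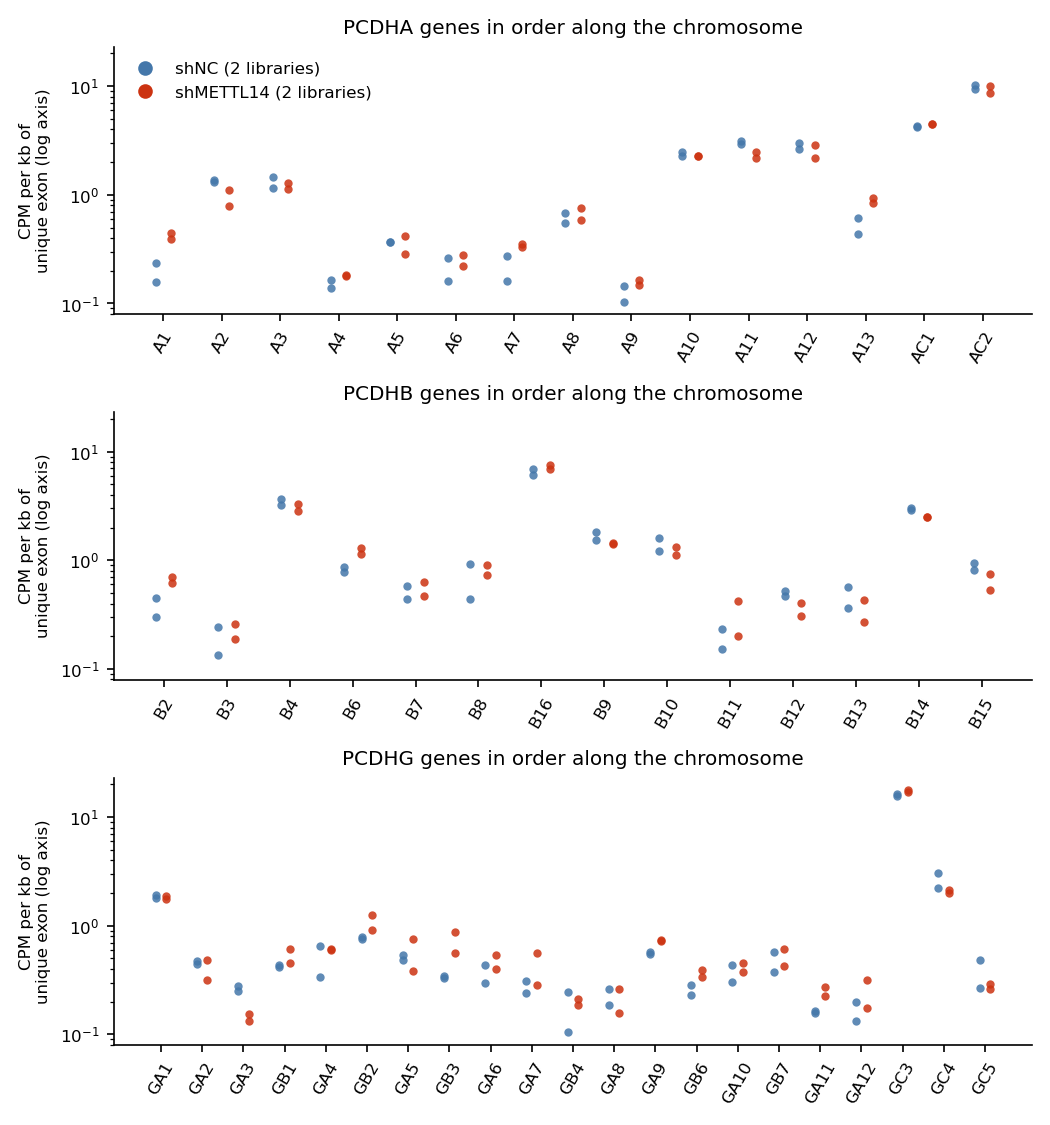
CPM per kb of exon sequence unique to the gene, on a log axis, for the 50 clustered genes that could be tested, in order along the chromosome, 1 point per library (blue shNC, red shMETTL14). PCDHAC2, PCDHB16 and PCDHGC3 lead their clusters in both groups.

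Levels can be set side by side between genes only per length, for which CPM was divided by the exon bases found in no other gene. On this scale the shNC means were 16.0 CPM per kb for PCDHGC3, 9.86 for PCDHAC2, 6.54 for PCDHB16, 4.22 for PCDHAC1 and 3.44 for PCDHB4. Non-clustered PCDH1 and PCDH18 stood at 4.25 and 4.22 CPM per kb, and PCDH9, with 30800 unique exon bases, at 2.34. PCDH1, PCDH18 and PCDHAC1 were thus near each other, and their order cannot be read from 2 libraries. PCDHA4 and PCDHA10 are annotated with 10574 and 9555 unique exon bases, more than any other alpha gene, and this length enters their level on this scale. PCDHA10 stood at 2.38 CPM per kb in shNC libraries, below PCDHA11 at 3.02. PCDHA12 was at 2.82. Bases overlapped on the opposite strand were left out of the length, 447 in PCDHA10 and 577 in PCDHA12. As the strand setting is not given, the order of PCDHA10 and PCDHA12 cannot be read from this scale.

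Sums over a family keep the members too weak to test and carry no test here. The alpha sum was 104 and 103 CPM in shNC and 100.3 and 100.1 CPM in shMETTL14 libraries, 96.6% of control and without overlap. The beta sum was 80.7 and 78.9 CPM against 76.0 and 80.2 CPM, 97.9% of control, with overlap. The gamma sum was 90.4 and 87.1 CPM against 94.1 and 97.6 CPM, 108% of control and without overlap. Under upper quartile scaling the log2 ratios of the alpha, beta and gamma sums were -0.12, -0.10 and 0.044, where TMM scaling gave -0.05, -0.03 and 0.11.

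Among the gamma genes, the variable genes summed to 28.2 and 28.6 CPM in shNC and 32.4 and 33.6 CPM in shMETTL14 libraries (116% of control), and the C-type sums overlapped between groups (104% of control). All 53 clustered genes together gave 275 and 269 CPM in shNC and 270.3 and 278 CPM in shMETTL14 libraries, 100.7% of control. The 12 non-clustered genes summed to 143 and 148 CPM in shNC and 185 and 186 CPM in shMETTL14 libraries, 128% of control, with PCDH9 as their largest and least changed part.

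**Figure D4:**
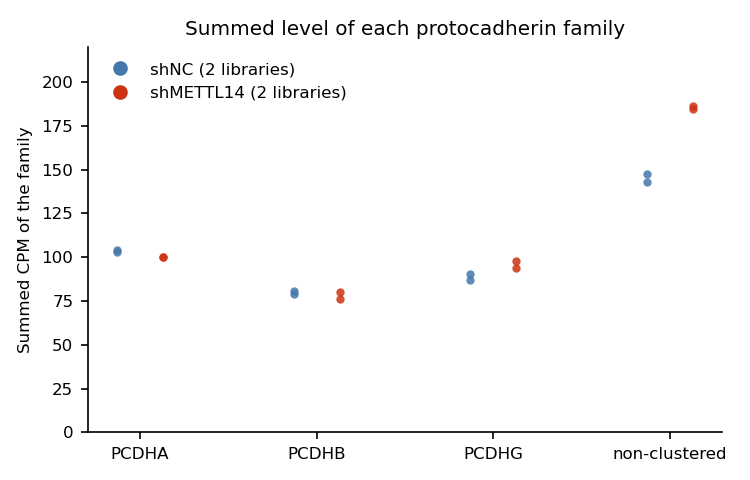
Summed CPM of each protocadherin family, 1 point per library (blue shNC, red shMETTL14), on an axis that starts at 0. The alpha, beta and gamma sums lie within 10% of their controls and the non-clustered sum is at 128% of control, without overlap.

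Between the first alpha gene and the end of PCDH1, on chromosome 5 from 140786136 to 141879246, lie 8 other protein-coding genes. Of the 6 that could be tested, 4 were called, 3 higher and 1 lower, beside 52.5% of all tested genes called, 27.2% higher and 25.3% lower.

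Genes around the protocadherins were read from lists. The first held 20 proteins of chromatin looping, cohesin loading and DNA or histone methylation, which act on clustered protocadherin promoters or on loops in general. All 20 could be tested and 11 were called, 1 higher and 10 lower (55%, beside 52.5% of all genes), with a median log2 fold change of -0.11. Each had a mean count of 100 or more, a level at which 62.7% of all genes were called. That level has no upper bound, and the 20 ran from 364 (ZNF143) to 23873.5 (HNRNPU), so the shares are not matched for depth. CTCF, the looping factor, was not called, with 2148 and 2079 counts in shNC and 2130 and 2057 in shMETTL14 libraries (95% interval of the log2 fold change from -0.10 to 0.09). The cohesin subunit STAG2 fell by 0.70 on the log2 scale (5441 and 5378 counts to 3322 and 3294, edgeR adjusted p 4.3e-12). DNMT3B, a de novo DNA methyltransferase, was lower at -0.58 and SETDB1, a histone H3 methyltransferase, at -0.41. UHRF1, which recruits the maintenance DNA methyltransferase, was higher at 0.41. No call in this list reached 2-fold.

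The next list held 25 partners of protocadherins at the membrane and below it, among them the WAVE complex that drives actin branching and the focal adhesion kinases. Of 24 that could be tested, 19 were called, 12 higher and 7 lower (79.2%, beside 52.5% of all genes), and none by 2-fold. The direction depended on the scaling, since upper quartile scaling gave 6 higher and 9 lower and library size alone 10 higher and 8 lower. CYFIP2 of the WAVE complex was higher at a log2 fold change of 0.53, the GTPases CDC42 and RAC1 at 0.50 and 0.48, and the kinase PTK2B was lower at -0.47. The median of the list was 0.08. All 24 had a mean count of 100 or more, a level at which 62.7% of all genes were called. That level has no upper bound, and the 24 ran from 147 (PTK2B) to 5771 (CDC42), so the shares are not matched for depth.

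The last list held 19 other long cadherins and related genes. Of 13 that could be tested, 7 were called, 4 higher and 3 lower (53.8%, beside 52.5% of all genes), and 3 of the calls reached 2-fold. FAT3, a giant cadherin of developing neurons, had 290 and 303 counts in shNC and 76 and 51 in shMETTL14 libraries (log2 fold change -2.21, edgeR adjusted p 1.0e-10). FJX1, a relative of the kinase that acts on FAT and Dachsous cadherins, went from 303 and 271 to 684 and 718 counts (2.46-fold higher, edgeR adjusted p 4.4e-11). CDH23, which forms the tip link with PCDH15, was lower, with 64 and 47 counts against 21 and 27 (-1.19, edgeR adjusted p 0.00193). CELSR1 had 15 and 18 counts against 31 and 30 (0.89, edgeR adjusted p 0.0473). Upper quartile scaling, library size alone and DESeq2 each gave 3 higher and 3 lower calls in this list.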

How the data were processed

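RNA was sequenced as paired ends, 2 libraries per group. The authors deposited raw read counts per Ensembl gene ID, without normalization. The submitters' processing notes name HISAT2 2.1.0, StringTie 1.3.6, HTSeq 0.13.5, edgeR and build GRCh38. The annotation release and strand setting are not given in the sources used here, so reads of a gene and an antisense partner cannot be told apart. The 5 lines that name no gene (19.1% to 19.9% of reads) stayed out of tests and library sizes. Their layout is that of htseq-count, which gives reads in exons of several genes to none.

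Of 60671 IDs, 60401 were matched to names and 58453 to GENCODE 29, which need not be the authors' annotation. Members and lists were chosen with earlier results of these data known.

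Counts were tested with edgeR 4.0.16 in R 4.3.3 (quasi-likelihood F-test on group, TMM scaling) after filterByExpr (minimum count 10, minimum total 15), which left 16309 genes and 57 of the 65 members. P-values were adjusted by Benjamini-Hochberg over all 16309 genes, and genes were called under 0.05. Standard errors and 95% intervals were taken from the F statistics. With 2 libraries against 2, exact permutation cannot pass 0.05, so calls rest on the variance model shared across genes. DESeq2 1.42.0, other scalings and filters, a block by replicate number, fold limits and omission of each library were alternatives. The procedure was tested on simulated counts.

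Full statistics are given for METTL14, for the 4 members per family with the smallest adjusted p, for members called at 2-fold or more, and for up to 4 called genes of a list with the largest change. Other members are given by their values.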

Additional observations from a re-analysis of the deposited data

How the results depend on the processing

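The METTL14 knockdown and the 6 non-clustered calls kept direction and call under the other scalings, filters, DESeq2, the replicate block and the omission of each library, wherever they were tested. The 1.5-fold limit left 5 of the 6 (without PCDH18) and the 2-fold limit 4 (without PCDH1 as well). PCDH15 could not be tested where 10 counts were required in every library. DESeq2 called 6 protocadherin genes, all non-clustered, where edgeR called 10, and 0 alpha, 0 beta and 0 gamma genes. Upper quartile scaling called 1 beta and 2 gamma genes, scaling by library size alone 2 gamma genes, and 10 counts in every library 2 alpha genes. The 1.5-fold limit left 0 alpha genes, 1 beta gene, 1 cluster regulator and 0 partners. The 2-fold limit, added after seeing the data, left 5 protocadherin genes, with 0 alpha and 0 beta genes, 0 regulators, 0 partners and 3 other cadherins. With 1 library left out, calls ranged from 0 to 2 for alpha, 0 to 1 for beta and 0 to 1 for gamma genes.

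Upper quartile scaling shifted the log2 fold changes over all genes by a median of -0.07 and library size alone by -0.05. The log2 ratios of the summed levels moved with them. The alpha sum went from -0.05 to -0.12 and -0.10 (-0.068 with 10 counts in every library), the gamma sum from 0.11 to 0.044 and 0.066, the non-clustered sum from 0.35 to 0.29 and 0.31, and the beta sum from -0.03 to -0.10 under upper quartile scaling. Without 1 library, the non-clustered sum ranged from 0.33 to 0.38.

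Libraries of the same replicate number showed no shared deviation across genes (Pearson correlation of deviations -0.0018, Spearman 0.0221, over 16309 genes). This cannot show, with 2 libraries per group, whether the libraries were paired. With a replicate block, 8926 genes were called, and 4 clustered and 6 non-clustered genes as without it. PCDH1, for example, stayed at 0.64.

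The sign of 20 members that were not called turned when 1 library was left out. Their log2 fold changes then ranged from -0.26 to 0.046 for PCDHA3, -0.38 to 0.18 for PCDHA5, -0.045 to 0.65 for PCDHA6, -0.065 to 0.29 for PCDHA8, -0.12 to 0.012 for PCDHA10, -0.36 to 0.027 for PCDHA12 and -0.20 to 0.027 for PCDHAC2. Beta ranges were -0.13 to 0.73 for PCDHB3, -0.12 to 0.32 for PCDHB7, -0.19 to 0.90 for PCDHB8 and -0.38 to 0.014 for PCDHB10. Gamma ranges were -0.077 to 0.035 for PCDHGA1, -0.54 to 0.061 for PCDHGA2, -0.13 to 0.85 for PCDHGA4, -0.42 to 0.58 for PCDHGA5, -0.29 to 0.89 for PCDHGB4, -0.50 to 0.21 for PCDHGA8, -0.063 to 0.46 for PCDHGA10, -0.15 to 0.46 for PCDHGB7 and -0.81 to 0.042 for PCDHGC5. The cause of these changes was not tested.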
